A study of Homo sapiens with 3 samples.

Results

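YBX1 (YB-1) is a DNA- and RNA-binding protein with a cold-shock domain, and its occupancy was examined here at the loci of 6 genes that encode transcription factors of blood formation: GATA2, RUNX1, GFI1B, FLI1, BCL11A and IRF8. The members were all peaks for which the authors' annotation named at least 1 of these genes. They came to 36 of the 22874 peaks of replicate 1 and 41 of the 17285 peaks of replicate 2. All 6 genes were named in both lists, out of 10830 genes named in either. The peaks come from ChIP-seq, in which crosslinked chromatin is recovered with an antibody and its DNA sequenced. Both immunoprecipitations against YBX1 (replicates 1 and 2) were made from the same kind of material, untreated steady-state cultures of HEL, an established human erythroleukaemia line that carries mutated JAK2. Each was set by the authors against the same input library, which is sheared HEL chromatin without immunoprecipitation. There is 1 cell line and 1 condition, no immunoprecipitation with a control antibody was analysed here, and separate cultures are not stated for the replicates, so their spread may be technical. Peak lists carry no expression values, so the levels of these factors in HEL were not measured.

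GATA2 and RUNX1 act in blood stem and progenitor cells. GFI1B, a zinc finger repressor, and FLI1, an ETS factor, act in the erythroid and megakaryocytic lineages. BCL11A, a zinc finger repressor, silences fetal globin genes in adult red cells, and IRF8 directs monocyte and dendritic cell development. YBX1 takes its name from the Y-box, an inverted CCAAT element (ATTGG on the other strand) of promoters, and it also binds single-stranded DNA and RNA.

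These peaks fell into few places. Joining peaks of either list that lay at most 1000 bp apart, a rule set after the lists were seen, gave 20 places, of which 7 belonged to RUNX1, 4 to IRF8, 3 each to BCL11A and FLI1, 2 to GATA2 and 1 to GFI1B. Both replicates had a peak in 13 of the 20 places (65%), against 57.6% of the 13800 places of the whole series. Of the 13 places, 11 held a tandem repeat, and of the 7 places seen in a single replicate 2 did. Both replicates thus had a peak in 84.6% of the places with a tandem repeat and in 28.6% of the 7 without, against 78.4% and 21.2% in the whole series. No test was made of these shares.

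In the authors' annotation the peaks lay mostly between genes, as did those of the whole lists. Intergenic sequence held 25 of 36 member peaks in replicate 1 (69.4%, 95% Wilson interval 53.1% to 82.0%) and 27 of 41 in replicate 2 (65.9%, 50.5% to 78.4%), against 58.9% and 59.3% of all peaks. Both intervals include the share of all peaks. They treat peaks as independent, although several are pieces of the same repeat, so they may be too narrow and are no test. For an intergenic peak the annotation names the neighbouring genes, so GATA2, GFI1B and IRF8 were named only as neighbours: 0 of their peaks lay in a promoter, exon or intron of the gene. RUNX1, FLI1 and BCL11A had peaks inside the gene. More than 1 gene was named for 23 of the 36 and 26 of the 41 member peaks (63.9% and 63.4%), against 24.5% and 25.7% of all peaks. A peak with several named genes has more chances to meet the rule for members. The higher share is therefore not read as a trait of these loci. No peak was named for more than 1 of the 6 genes.

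A promoter peak was listed for FLI1 alone, 1 in each replicate, and the other 5 genes had 0 in both lists. Promoter peaks were thus 1 of 36 and 1 of 41 member peaks (2.78% and 2.44%), near the 3.28% and 3.42% of all peaks. The promoters of those 5 were looked at for the letters of the Y-box. RefSeq promoter windows (GRCh38.p14, 250 bases before to 50 bases after a transcript start) were at hand for 12 starts of BCL11A, GATA2, GFI1B, IRF8 and RUNX1. CCAAT or ATTGG, searched on both strands by looking for both words, stood in 5 of these 12 windows and in 34.6% of all 35116 windows. A window with such letters is shown for each of the 4 genes that had 1, because these are promoters that hold the letters without a listed peak. A match of 5 letters does not show a working Y-box. For BCL11A, which had 2 such windows, the one with more matches is shown. Capitals mark the matching letters. The peaks are in hg19, so windows and peaks were compared by the annotation and not by position.

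RUNX1, chr21:34888650-34888949, minus strand: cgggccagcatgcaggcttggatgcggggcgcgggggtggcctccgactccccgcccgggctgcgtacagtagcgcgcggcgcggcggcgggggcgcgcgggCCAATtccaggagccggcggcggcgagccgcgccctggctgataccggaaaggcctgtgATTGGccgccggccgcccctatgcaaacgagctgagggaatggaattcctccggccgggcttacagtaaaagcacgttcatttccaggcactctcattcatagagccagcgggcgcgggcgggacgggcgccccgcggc
BCL11A, chr2:60553605-60553904, minus strand: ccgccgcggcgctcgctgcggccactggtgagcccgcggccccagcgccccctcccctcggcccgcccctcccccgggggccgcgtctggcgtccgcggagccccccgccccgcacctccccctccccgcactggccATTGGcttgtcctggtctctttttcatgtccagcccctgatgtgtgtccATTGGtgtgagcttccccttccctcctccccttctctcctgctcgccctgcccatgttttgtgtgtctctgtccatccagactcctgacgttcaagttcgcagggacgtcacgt
GATA2, chr3:128488481-128488780, minus strand: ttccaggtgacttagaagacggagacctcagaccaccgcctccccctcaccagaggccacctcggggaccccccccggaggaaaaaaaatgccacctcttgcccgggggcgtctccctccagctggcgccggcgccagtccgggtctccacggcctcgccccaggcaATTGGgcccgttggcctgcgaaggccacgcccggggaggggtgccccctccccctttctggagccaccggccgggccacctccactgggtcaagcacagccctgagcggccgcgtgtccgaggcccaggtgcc
GFI1B, chr9:132978444-132978743, plus strand: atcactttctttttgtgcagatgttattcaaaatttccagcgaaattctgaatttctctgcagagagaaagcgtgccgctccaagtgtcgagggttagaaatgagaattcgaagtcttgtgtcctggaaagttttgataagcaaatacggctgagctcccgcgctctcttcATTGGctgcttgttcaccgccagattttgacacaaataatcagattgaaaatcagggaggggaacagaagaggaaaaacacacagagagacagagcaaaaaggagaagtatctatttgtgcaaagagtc

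The RUNX1 window held both words, CCAAT at 148 and ATTGG at 89 bases before the start, and the other 3 held ATTGG alone. In the BCL11A window it stood at 113 and 64 bases, in that of GATA2 at 83 and in that of GFI1B at 79 bases before the start, counted to the first letter. IRF8 had 0 matches in its 2 windows. These letters are a description of the windows and not a measure of binding.

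Peaks on a locus were described by their tags, which are the sequenced ends counted in the peak, and by the authors' fold enrichment. That value is the tags at the summit over a background, which is the local input or a genome-wide level, whichever is higher. The smallest listed peaks held 5 tags, and 8 of 36 member peaks of replicate 1 (22.2%) and 3 of 41 of replicate 2 (7.32%) had that number, against 21.7% and 22.1% of all peaks. Over the members the median was 11.5 tags (5 to 98) in replicate 1 and 13 (5 to 50) in replicate 2, against 9 and 8 in the remaining peaks. The median fold enrichment of the members was 47.9 and 54.4, and that of the remaining peaks 53.9 and 54.4.

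**Figure D1:**
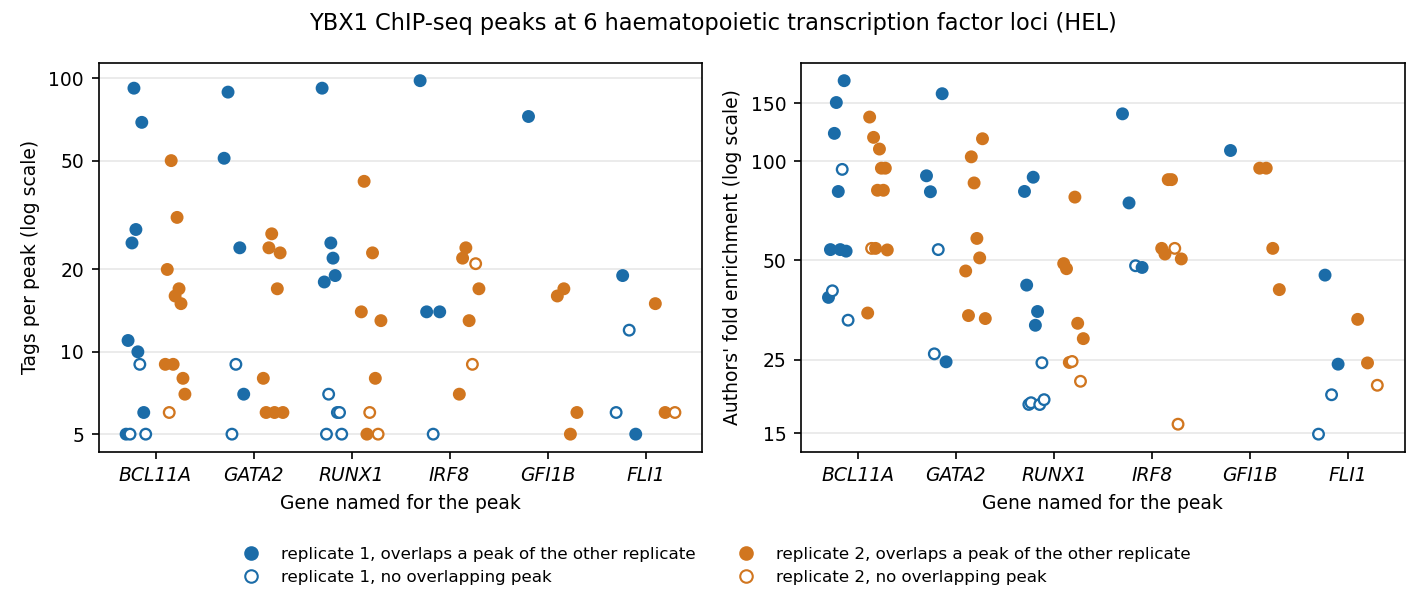
Tags (left) and the authors' fold enrichment (right) of every member peak by gene, on log scales, for replicate 1 (blue) and replicate 2 (orange); filled circles overlap a peak of the other replicate by at least 1 bp. The highest peaks of BCL11A, GATA2, RUNX1, IRF8 and GFI1B in replicate 1 hold 73 to 98 tags, whereas no FLI1 peak exceeds 19.

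GATA2 was named for 6 peaks in replicate 1 and 8 in replicate 2, at 2 intergenic places 133173 bp apart. The larger, on chromosome 3 (hg19, 128164183 to 128165278), held a TGG tandem repeat and, beyond it, a 5-tag peak of replicate 1 alone on an MSTA element. For this place DNAJB8, DNAJB8-AS1, EEFSEC, GATA2-AS1 and LOC90246 were also named. The shared region on the TGG repeat (128164183 to 128165095) held 140 tags in 2 peaks over 895 bp in replicate 1 and 88 tags in 6 peaks over 572 bp in replicate 2. The strongest fold enrichments there were 90.3 and 103. Both libraries marked this repeat, replicate 2 in smaller pieces.

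The other GATA2 place (128298452 to 128298922), named for RPN1, C3orf27, GATA2-AS1 and LOC90246 as well, carried the highest fold enrichment of the locus. A peak on a TAGA repeat had 24 tags and a fold enrichment of 160 in replicate 1 and 23 tags and 117 in replicate 2. It ranked 671 of 22874 and 1344 of 17285 by fold enrichment. Just beyond it, a weaker region had 7 tags (24.7) and 6 tags (33.3). A TATG repeat peak of 9 tags was listed in replicate 1 alone, with the highest fold enrichment of the GATA2 peaks found in 1 replicate (53.9). Between both places, in an intron of the antisense gene GATA2-AS1, a TAGA peak was shared (17 tags in replicate 1 and 14 in replicate 2). It is not named for GATA2, is no member and was picked out after its values were seen.

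RUNX1, which encodes the DNA-binding subunit of core-binding factor, had 10 peaks in replicate 1 and 8 in replicate 2, spread over 7 places of chromosome 21. Inside the gene, an intronic TCCA repeat (36343763 to 36343856) had 25 tags in replicate 1 and 23 in replicate 2, with fold enrichments of 89.4 and 77.8. Adjacent to it a region of intron 2 of 8 without a repeat label (36343917 to 36344097) had 22 tags over 181 bp in replicate 1 and 8 tags over 60 bp in replicate 2, at 31.8 and 32.2. A second TCCA repeat, in another place of the gene (36405196 to 36405328), had 19 and 13 tags, at 35.0 and 29.0. These 3 intronic regions are given because both libraries had them. Other intron peaks of RUNX1 stood in 1 library alone, with 6 tags in replicate 1 and with 6 and 5 tags in replicate 2.

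An exon peak of RUNX1 was listed in replicate 1 alone. It lay in exon 9 of 9 (36164835 to 36164896) with 7 tags (exact 95% Poisson interval 2.81 to 14.4) and a fold enrichment of 18.5, which ranked 22263 of 22874. It was the only exon peak of the 6 genes. Outside the gene, a region on and beside a TCCA repeat near CLIC6, LINC01426 and LINC00160 (36112498 to 36113026) held 110 tags in 2 peaks in replicate 1 and 61 in 3 peaks in replicate 2, with strongest fold enrichments of 80.9 and 48.9. RUNX1 also had the most peaks found in 1 replicate, 5 in replicate 1 and 2 in replicate 2. None of these exceeded 7 tags, and the highest fold enrichment among them was 24.7, on an L2b element of an intron in replicate 2.

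GFI1B had a single place (chromosome 9, 135882226 to 135882676), an intergenic TGGA repeat for which CEL, CELP, GTF3C5, RALGDS, TSC1 and MIR6877 were named too. Replicate 1 listed it as 1 peak of 73 tags over 451 bp, and replicate 2 as 4 peaks with 16, 17, 5 and 6 tags over 300 bp in all. The fold enrichment was 108 in replicate 1 and at most 95.2 in replicate 2. All of its peaks overlapped between the libraries.

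FLI1 had the fewest tags of the 6 genes: 42 in 4 peaks of replicate 1 and 27 in 3 peaks of replicate 2. The shared peaks classed as promoter (chromosome 11, 128558312 to 128558384) had 5 tags (1.62 to 11.7) in replicate 1 and 6 tags (2.20 to 13.1) in replicate 2, at fold enrichments of 24.2 and 24.5. The detailed annotation puts them in intron 1 of 6 and gives no repeat. Their ranks by fold enrichment were 21485 of 22874 and 15896 of 17285, near the lower end of both lists.

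The strongest FLI1 region was an intergenic TGGA repeat (128464985 to 128465083), for which ETS1, a gene of the same ETS family, SENCR, MIR6090 and LOC101929517 were named too. It had 19 tags in replicate 1 and 15 in replicate 2, at 45.1 and 33.2. Of the peaks found in 1 replicate, that in intron 5 of 8 in replicate 2 had the highest fold enrichment, 20.9 with 6 tags. Leaving out intergenic peaks, FLI1 therefore rested on 5 tags in replicate 1 and 12 in replicate 2.

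BCL11A had 11 peaks in each replicate, with the most tags in all of the 6 genes (265 in replicate 1 and 188 in replicate 2) and the highest fold enrichment of a single peak in each (175 and 136). An intron of the gene held a TGG tandem repeat (chromosome 2, 60694134 to 60695298) on which all 5 peaks of replicate 1 and all 7 of replicate 2 were labelled TGG. In replicate 1 the peaks had 92, 28, 10, 9 and 69 tags along the chromosome, 208 in all over 1051 bp. In replicate 2 they had 50, 9, 16, 31, 17, 15 and 8 tags, 146 in all over 945 bp.

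The highest fold enrichment of any member peak, 175 in replicate 1, stood at the far end of this repeat (60695009 to 60695298, rank 328 of 22874). In replicate 2 the same stretch was split into 3 peaks, of which the strongest had 95.2. At the near end (60694134 to 60694548) the values were 151 and 118, and in the middle region (60694551 to 60694871) 80.9 and 109. Of the 12 peaks of the repeat, the 9-tag peak of replicate 1 (fold enrichment 94.4) had no overlapping partner; it was the strongest BCL11A peak found in 1 replicate.

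On either side lay intergenic TAGA repeats of the BCL11A locus. The region at 60631834 to 60631949, in a place that ended 62077 bp before the intronic repeat and was also named for MIR4432, had 25 tags in replicate 1 and 20 in replicate 2, with fold enrichments of 121 and 136, and ranked 769 of 10895 shared regions by the lower value. Next to it, a weaker region on MER20 and L2c elements had 16 tags in 2 peaks and 9 tags in 1 peak (53.9 and 34.6). The region on the far side (60861511 to 60861559), 166212 bp from the intronic repeat, had 6 and 7 tags at 53.4 and 53.8. These 3 regions are given because both libraries had them, and the first had the highest fold enrichment of the 3 in each. The same intergenic places also held peaks without a partner, with 5 and 5 tags in replicate 1 and 6 tags in replicate 2.

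IRF8 was named for 4 peaks in replicate 1 and 7 in replicate 2, all intergenic on chromosome 16. The largest region was a CAT repeat (85856931 to 85857329) with 98 tags in 1 peak of replicate 1, the most of any member peak, and 53 tags in 3 peaks of replicate 2, 1 of which was labelled HAL1-2a_MD and not CAT. Its fold enrichments were 139 and 87.9. COX4I1, a subunit of cytochrome c oxidase, EMC8, C16orf74, MIR1910 and MIR6774 were named for the same place, so the assignment to IRF8 is 1 of 6. Directly beside it a HAL1-2a_MD element, a repeat related to L1, had 14 tags in replicate 1 and 13 in replicate 2 (74.7 and 87.9).

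A second HAL1-2a_MD element (86047534 to 86047648), named for IRF8 and MIR6774, had 14 and 17 tags at 47.6 and 50.5. HAL1-2a_MD thus held 2 of 36 and 3 of 41 member peaks, all named for IRF8, against 3.38% and 3.33% of all peaks. Replicate 2 alone had a TCCA repeat peak (9 tags, fold enrichment 54.4) and a peak of 21 tags labelled CpG (86006288 to 86006467), the second picked out after its values were seen. The CpG peak had a fold enrichment of 15.9, rank 16732 of 17285, whereas by tags it ranked 2277.

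**Figure D2:**
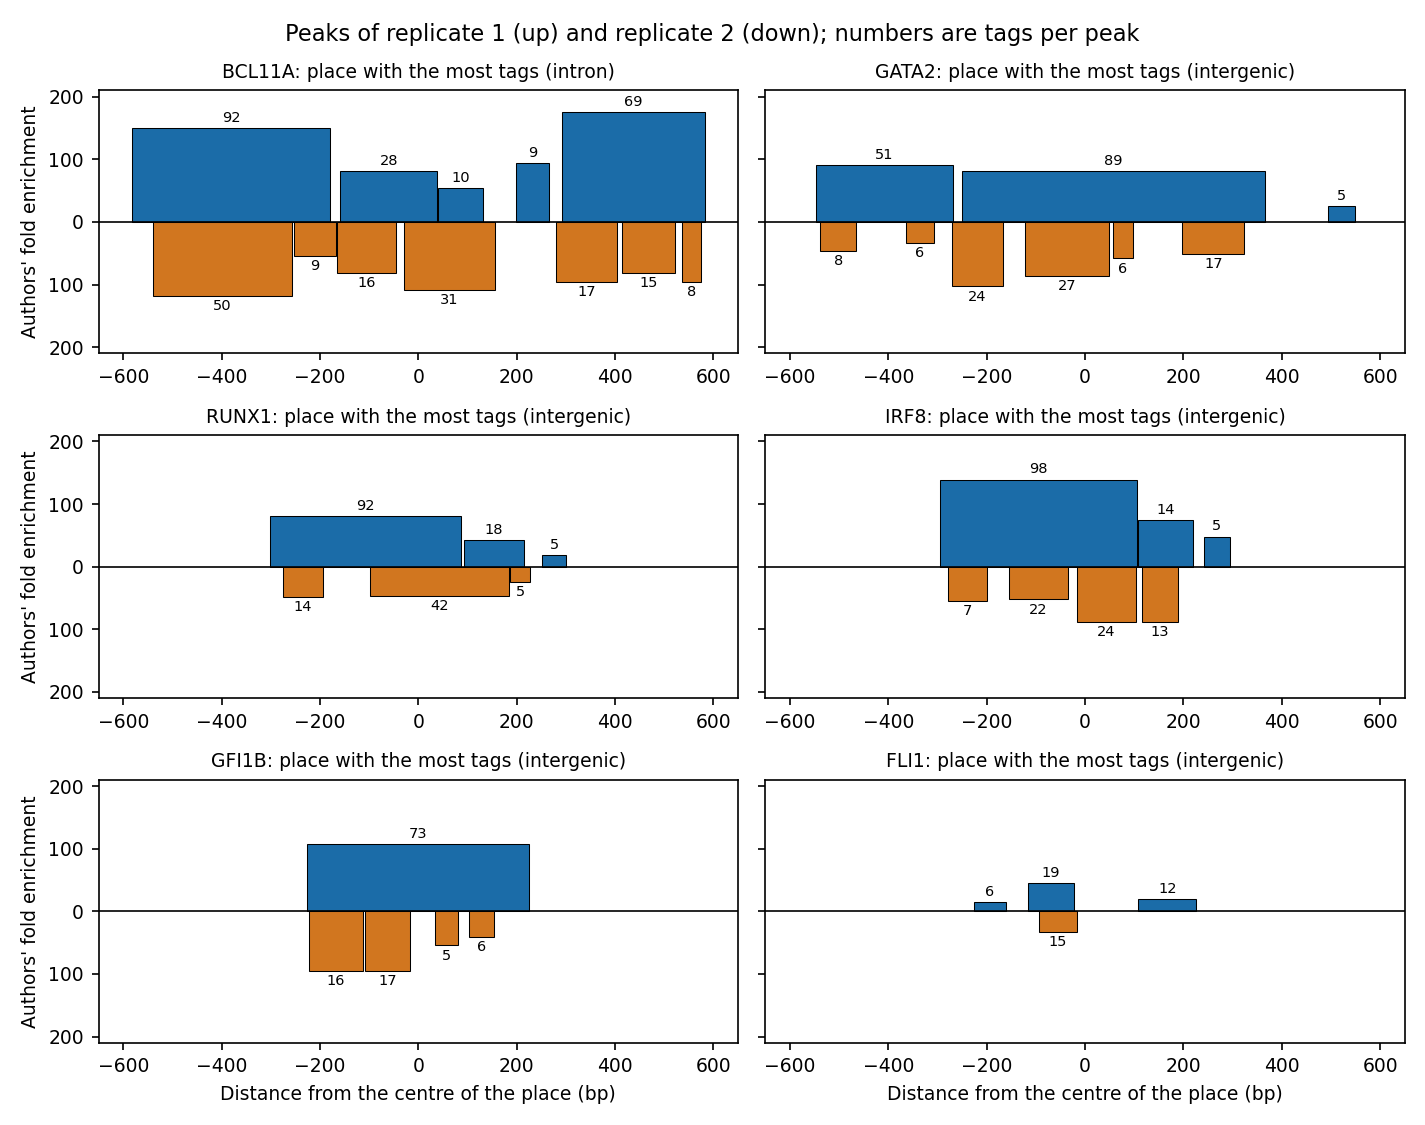
For each gene, the place with the most tags: boxes give the extent of each peak (x, bp from the centre of the place) and its fold enrichment (y, authors' values), upward for replicate 1 and downward for replicate 2, with tags per peak as numbers. Each place carries overlapping peaks of both replicates, all but that of GFI1B also hold peaks of replicate 1 without a partner, and GFI1B shows 1 peak of 73 tags against 4 smaller ones.

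Member peaks were found in both replicates in most cases. An overlap of at least 1 bp was seen for 23 of 36 peaks of replicate 1 (63.9%, 95% Wilson interval 47.6% to 77.5%) and 35 of 41 of replicate 2 (85.4%, 71.6% to 93.1%), where the whole lists had 54.0% and 77.6%. Both intervals include the share of the whole list. They treat peaks as independent, although several are pieces of the same repeat, such as 7 peaks of replicate 2 in the BCL11A intron, so they may be too narrow. Peaks on tandem repeats overlapped in 15 of 20 and 27 of 28 cases, and other peaks in 8 of 16 and 8 of 13. For all peaks these shares were 71.1% and 90.8% on tandem repeats and 36.1% and 58.7% elsewhere. The lists share their input library and are not independent, so overlap does not by itself measure binding.

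The overlapping peaks held more tags than those found once, with medians of 22 and 6 tags in replicate 1 and 15 and 6 in replicate 2. For the remaining peaks of the series the medians were 14 and 6 in replicate 1 and 10 and 6 in replicate 2. For overlapping member peaks the median gap between summits was 14 bp in replicate 1 and 38 bp in replicate 2, against 15 bp and 17 bp over all overlapping peaks. Within 50 bp lay 22 of the 23 member gaps of replicate 1, against 10674 of 12353 over all overlapping peaks. In replicate 2 it was 21 of 35, a lower share than the 10648 of 13416 of the whole list, and the widest member gap was 277 bp.

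Merging overlapping peaks gave 19 shared regions, 6 for BCL11A, 4 for RUNX1, 3 each for GATA2 and IRF8, 2 for FLI1 and 1 for GFI1B. All 6 genes had at least 1, where 66.7% of all named genes did. Inside the gene, RUNX1 and BCL11A had 3 each and FLI1 had 1, so that 3 of the 6 genes had at least 1, where 20.4% of all named genes did. The median number of shared regions over all named genes was 1. Gene length was not taken into account in these counts. The 6 genes were chosen with earlier results of these data known, so the counts are not read as an enrichment. Tandem repeats held 13 of the 19 regions (68.4%, 46.0% to 84.6%) and 68.6% of all 10895.

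**Figure D3:**
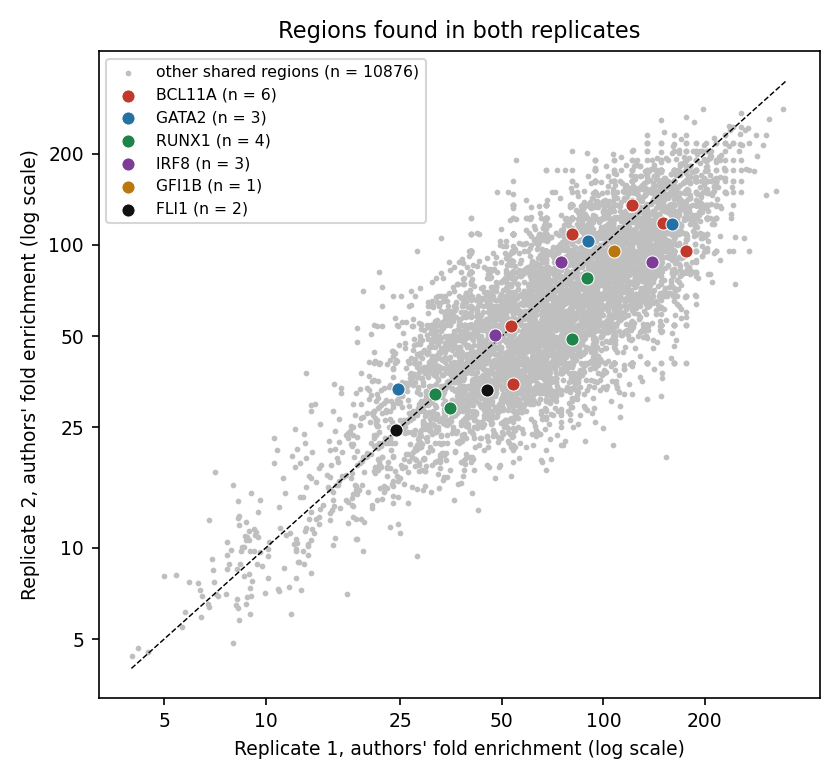
The authors' fold enrichment of regions found in both replicates, replicate 1 (x) against replicate 2 (y), both on log scales, with the 19 member regions in colour and the rest of the 10895 in grey; the dashed line marks equal values. BCL11A and GATA2 regions reach the upper part of the cloud, and both FLI1 regions lie below 50 on both axes.

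Fold enrichments of the 19 regions lay on both sides of equality, higher in replicate 1 for 10 and in replicate 2 for 9. The median log2 difference, replicate 1 minus replicate 2, was 0.18 (-0.44 to 0.88), against 0.24 over all shared regions. The ratio of tags was then taken by the length of the region. In the 7 regions of at least 300 bp, a limit set after the values were seen, replicate 1 had a median of 1.66 times the tags of replicate 2 and covered 1.28 times the length. In the 12 shorter regions the median was 1.13 times and the length 1.20 times. The depth of the libraries differed by a factor of 1.01 only. Over all shared regions the medians were 1.43 times for the 1128 long ones and 1.27 times for the 9767 short ones.

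Of all 19 regions the ratio was largest at a short one, the region of RUNX1 intron 2 without a repeat label (22 against 8 tags, 2.75, exact 95% interval 1.18 to 7.14). Among the long regions it was largest at the CAT repeat of IRF8 (98 against 53 tags, 1.85, 1.31 to 2.63) and the intergenic repeat of RUNX1 (1.80, 1.31 to 2.51). It was lowest at the middle region of the BCL11A intron (38 against 47 tags, 0.81, 0.51 to 1.27). These intervals cover counting error only. Regions are the union of separately called peaks, so their tags move with how much was called.

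The background that enters the fold enrichment differed between the loci. MACS takes as background either a genome-wide level or the local input, whichever is higher. Peaks set against the genome-wide level can be told by their fold enrichment, which moves in steps of 13.5 (replicate 1) or 13.6 (replicate 2); a value within 0.006 of a whole number of steps was counted. That was so for 9 of 36 member peaks (25%, against 38.9% of all peaks) and 14 of 41 (34.1%, against 37.4%). It held for 7 and 8 of the 11 BCL11A peaks of each replicate and for all 5 GFI1B peaks. It held for 0 of 10 and 0 of 8 RUNX1 peaks and for 0 of 4 and 0 of 3 FLI1 peaks.

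Other peaks of the same chromosomes gave the setting. On chromosome 21, which holds RUNX1, 5 of 713 other peaks of replicate 1 (0.701%) and 1 of 568 of replicate 2 (0.176%) were measured against the genome-wide level. On chromosome 16, which holds IRF8, the shares were 77.6% and 72.6%, whereas IRF8 had 0 of 4 and 2 of 7. On chromosome 9 they were 53.2% and 54.5%, and on chromosomes 2, 3 and 11 between 28.1% and 33.6% in both replicates. A peak of the intergenic RUNX1 repeat and a peak of the BCL11A intron both had 92 tags in replicate 1, over 387 and 403 bp, with fold enrichments of 80.9 and 151. Neither of these peaks was counted at the genome-wide level. The part of the local input in the difference between their fold enrichments was not tested. An order of these genes by fold enrichment is therefore not an order by tags.

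**Figure D4:**
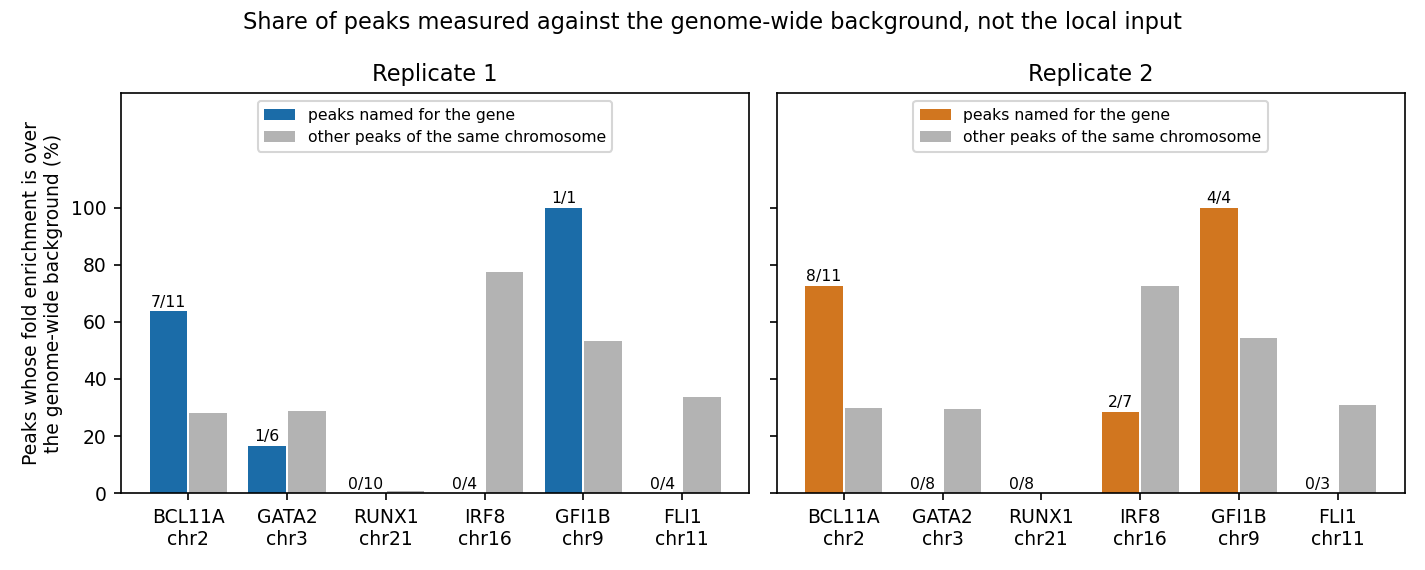
Share of peaks (y, percent) whose fold enrichment is over the genome-wide background, for peaks named for each gene (coloured, with counts) and other peaks of its chromosome (grey), in replicate 1 (left) and replicate 2 (right). RUNX1 and all of chromosome 21 lie at or near 0, and GFI1B is at 1 of 1 and 4 of 4.

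Other transcription factors of blood formation were described from a list of 40 genes that holds none of the 6. The list was chosen with earlier results of these data known, so its shares are not read as an enrichment. Of the 40 genes, 23 were named for a peak, and 18 of the 23 had a shared region (78.3%, where all named genes had 66.7%). Inside the gene, 10 of the 23 had a shared region (43.5%, where all named genes had 20.4%), with gene length not taken into account. No shared region of these genes lay in a promoter or exon. Over all 10895 shared regions, 326 were classed as promoter by their strongest peak of replicate 1. The strongest, by the lower of both fold enrichments, were those of GATA3 (189 and 167), a lymphoid relative of GATA2, and of the ETS factor ELF1 (140 and 154), both intergenic. ZFPM1, the cofactor of GATA1 (148 and 136), and CBFA2T3, a corepressor of the ETO family (121 and 136), had theirs in an intron, and TCF3, which encodes E proteins (135 and 136), between genes. The genes of the list with 0 peaks in both replicates included GATA1, TAL1, KLF1, NFE2 and CEBPA, singled out after the counts were seen. Since no listed peak has under 5 tags, this does not show that YBX1 is absent there.

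By the numbers of peaks in each replicate and of shared regions (3 counts from 2 libraries), FLI1 was matched exactly by GATA3 with 4, 3 and 2. The closest to RUNX1 was its relative RUNX3 with 9, 5 and 4, and to GFI1B it was BCL11B with 2, 3 and 1. LMO2, with 3, 4 and 3, was the closest to IRF8 and, with RUNX3, to GATA2, at summed differences of 4 and 7. ERG, with 16, 10 and 6, was the closest to BCL11A. Likeness in these counts carries no statement on sequence, since GATA3's strongest region lay on a TCTA repeat and FLI1's on TGGA.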

How the data were processed

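YBX1 ChIP-seq of HEL cells was available as 2 peak lists, 1 per replicate. Tools in the submitters' processing notes are MACS 1.4, Bowtie2, Trimmomatic 0.36 and bcl2fastq 02.14.01.07, with the build hg19. Peaks were called by the authors with MACS 1.4.2 on each replicate alone against the 1 input library, with a p-value cutoff of 1e-05 and a fragment shift d of 20 bp, which is shorter than the 36 bp tag, keeping 1 tag per position, per the file headers. Peak widths and summit folds rest on that shift. Kept tags were 10010819 in replicate 1, 9926271 in replicate 2 and 74780414 in the input, per the file headers. Filtering and annotation were the authors' steps, and the filter rule was not found in the labels or headers. The replicate 2 header names its alignment with another number than the label, and the label was followed.

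The deposited tags are raw counts per peak, the deposited fold enrichment is a ratio of tags at the summit to the background, and the deposited peak score is 10 times the negative log10 p-value (a unit read from its minimum, 50.04 in replicate 1 and 50.01 in replicate 2, since the header of that column is damaged). The authors' false discovery rate, in percent, was 0 for all peaks. Coordinates are hg19, counted from 1, as in the files. Position class, repeat and genes are the authors' annotation; no hg19 genome was used here.

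Lists were read with Python 3.11.15 and pandas 2.3.3. Overlap (at least 1 bp) and joining were checked on simulated intervals. Intervals are 95% Wilson for shares (scipy 1.17.1) and exact Poisson or binomial for tags, and cover counting error only. The Wilson intervals treat peaks or regions as independent, although several can be pieces of the same repeat. With 1 condition no test between groups was made. The whole lists give the background. The named peaks follow a rule: every promoter or exon peak, every shared region inside a gene, and up to 3 other shared regions and the strongest peak found in 1 replicate per gene. The members, lists and rules were chosen with earlier results of these data known. RefSeq windows of GRCh38.p14 matched 5 of the 6 genes (not FLI1). Alternatives were a stricter p-value, a minimum of 10 tags, peaks inside genes only and other definitions of overlap.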

Additional observations from a re-analysis of the deposited data

How the results depend on the processing

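All 6 genes were named for a peak without replicate 1 and without replicate 2, and all 6 had a shared region under each setting tried except that of peaks inside the gene, which left 3. Of 54 values recomputed, 38 stayed within 1.5 times the reported count or within the interval of the reported share, and 16 moved. With a p-value of at most 1e-10 the members came to 21 peaks in replicate 1 and 25 in replicate 2, and with at least 10 tags to 20 and 22. The overlapping share of replicate 1 was then 81.0% and 85%, that of replicate 2 with at least 10 tags 95.5%, and the share of shared regions on tandem repeats 85.7% under both settings. The shares over all peaks were not computed under the alternative settings, so these changes cannot be read as particular to the members. Counting peaks inside the gene alone left 11 peaks in replicate 1, 14 in replicate 2, 7 shared regions, 3 genes with a shared region, and 10 of the other factors with one. Peaks at most 500 bp apart gave 91.7% for replicate 1, and summits at most 50 bp apart gave 51.2% for replicate 2, the cause of which was not tested. At p of at most 1e-10 or at least 10 tags, FLI1 no longer had a shared region inside the gene, which left 2 genes. The settings for places and for the other factors were chosen after seeing the data. No paired analysis was possible because there is 1 group of immunoprecipitations and 1 input library. With peaks of 5 to 7 tags, absence from a list was not measurable as absence of signal.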
